A study of Mus musculus with 6 samples.

Results

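The genes described are 40 genes of DNA replication and S phase, the stretch of the cell cycle in which chromosomes are copied. They were taken by symbol from the deposited table, in which each of the 40 filled 1 row among 23108 named rows. The set covers origin licensing (10 genes), origin firing (4), DNA synthesis at the fork (13), nucleotide supply (5), chromatin assembly and methylation behind the fork (4), regulators of S phase entry (3) and the DNA glycosylase Neil3. Messenger RNA was sequenced from the distal colon of 6 male mice aged 8 weeks, all labelled as strain C57Bl/6 and numbered 1 to 3 within each genotype. The mice were 3 wildtype (WT) animals and 3 TNFR2-knockout (KO) animals, written TNFR2-/-, that lack the second receptor for tumor necrosis factor. No treatment is named for either genotype. The construction of the TNFR2 allele and any shared litters were not given in the sources used here. Levels are in FPKM, a count of fragments per length of transcript and per mapped library, a unit that allows levels to be compared between genes.

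Replication starts when the origin recognition complex, with Cdc6 and Cdt1, loads the Mcm2 to Mcm7 helicase on DNA before S phase, which is called licensing. Mcm10, Cdc45 and the GINS complex then turn the loaded helicase into a moving fork. DNA polymerase alpha with its primase starts each new strand, polymerases delta and epsilon extend it with the sliding clamp PCNA, and flap cutting and ligation join the fragments. In the colon, cells in S phase lie in the lower part of the crypts, while the surface epithelium has left the cell cycle. Transcription of many replication genes is under control of E2F factors around S phase entry, and genes of mitosis peak later in the cycle.

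Tnfrsf1b, which encodes TNFR2, measured 7.49, 8.20 and 8.17 FPKM in WT libraries 1 to 3 and 1.17, 1.12 and 0.924 FPKM in KO libraries 1 to 3, so all 6 libraries carried the values that their labels imply. Relative depth, judged from the steps between low values, lay between 0.736 and 1.10 of WT library 1. Epithelial identity was clear: Epcam, the adhesion molecule of epithelial cells, ranged from 558 to 772 FPKM, and all 15 colon epithelial markers with a row were detected in every library. Libraries differed in tissue from outside the colon. Summed over 9 skeletal muscle genes, levels were 8545, 2634 and 3133 FPKM in WT and 150.4, 2024 and 1523 FPKM in KO libraries 1 to 3. Summed over 15 skin genes they were 1420, 540.2 and 1466 FPKM in WT and 81.9, 698.7 and 1274 FPKM in KO, and the skin keratin gene Krt2 was listed at 0 in KO library 1. KO library 1 had the lowest sums and WT libraries 1 and 3 stood among the highest.

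Promoter sequences in the RefSeq table of build GRCm38.p6, the same assembly as mm10, were matched by symbol for 34 of the 40 genes. Those without an entry are Mcm4, Pole, Prim2, Ccne2, Gins1 and Gins2. The 250 bases before each start were searched on both strands for 5 words of the E2F type (TTTCGCGC, TTTGGCGC, TTTCCCGC, TTTGGCGG and TTTCCCGG), and a gene with several starts was counted if any of them held a word. At least 1 word stood in 10 of the 34 promoters (29.4%), among them 5 of 9 licensing genes and 3 of 4 chromatin genes, while 909 of all 27025 genes in the table held one (3.36%). Of 39 further replication genes with an entry, 10 held a word (25.6%). The word CCAAT of the NF-Y type was found in 19 of 34 (55.9%) against 37.5% of all genes, and TTTGAA, the cell cycle homology region, in 4 of 34 (11.8%) against 18.3%. Of 31 mitotic genes, 2 held E2F-type words (6.45%), 23 held CCAAT (74.2%) and 11 held TTTGAA (35.5%). CCAAT, the shortest of these words, was the most frequent in both lists and also over all genes. Some of the starts used lay inside the gene as annotated in GENCODE, among them those of Cdc6, Mcm7, Dut and E2f1. For the genes named, the bases before the annotated start were not searched. A match is a run of letters and not a measured binding site, and no binding data were used.

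Stretches of 80 bases are shown for 4 of the 5 licensing genes whose promoters held the words, and for Neil3, the gene whose level differed most, whose window held none of the E2F, CCAAT or TTTGAA words. Each runs 5′ to 3′ on the strand of its gene, and capitals mark E2F-type words, which overlap each other in Mcm5 and Mcm6. The stretch of Cdc6 lies inside the gene as annotated in GENCODE. The end of the Orc1 stretch, with its word, also lies past the annotated start of Orc1 at 108579423. The positions in GRCm38.p6 are chr8:75109336-75109415 (plus strand) for Mcm5, chr1:128359756-128359835 (minus strand) for Mcm6, chr11:98907993-98908072 (plus strand) for Cdc6, chr4:108579374-108579453 (plus strand) for Orc1 and chr8:53639066-53639145 (minus strand) for Neil3.
Mcm5: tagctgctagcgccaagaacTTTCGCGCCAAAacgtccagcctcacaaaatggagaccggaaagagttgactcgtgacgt
Mcm6: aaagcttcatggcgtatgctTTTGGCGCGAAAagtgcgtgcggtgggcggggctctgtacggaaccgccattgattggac
Cdc6: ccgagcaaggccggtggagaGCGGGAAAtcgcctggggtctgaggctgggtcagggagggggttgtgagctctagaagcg
Orc1: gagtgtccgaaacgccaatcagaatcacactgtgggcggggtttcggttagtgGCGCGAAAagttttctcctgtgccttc
Neil3: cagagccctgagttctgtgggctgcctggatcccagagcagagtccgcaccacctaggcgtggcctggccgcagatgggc

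The comparison asks how the levels of these genes in the colon differed between mice without TNFR2 and wildtype mice. Among the 40 genes only Neil3 passed the test, and it was higher in the knockout. The other 39, the replication machinery itself, did not pass, and their log2 changes lay between -0.37 and 0.29. The fit was limma on log2(FPKM + 1), with p-values adjusted by the Benjamini-Hochberg method over all 14564 genes tested and calls made at an adjusted p under 0.05. All 40 genes passed the filter of a mean of 0.5 FPKM. Calls made up 0.288% of all genes tested, 0.185% higher and 0.103% lower in the knockout, against 1 of 40 here. Of the 40, 16 had a higher and 24 a lower mean in the knockout (40% higher, against 42.6% of all genes tested), and the median log2 change was -0.04, against -0.03 over all genes. An unadjusted p under 0.05 was reached by 4 of the 40, against 16.2% of all genes. The genotypes did not overlap in 3 of the 40 (Neil3, Cdc45 and Pola2), a smaller share than the 21.8% of all genes. In whole tissue, fewer cells of a type and less RNA per cell cannot be told apart. By the authors' deposited table, none (0) of the 40 had a q-value under 0.05, against 1.04% of all named rows, and the smallest p-value among them was 0.068, for Neil3.

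**Figure D1:**
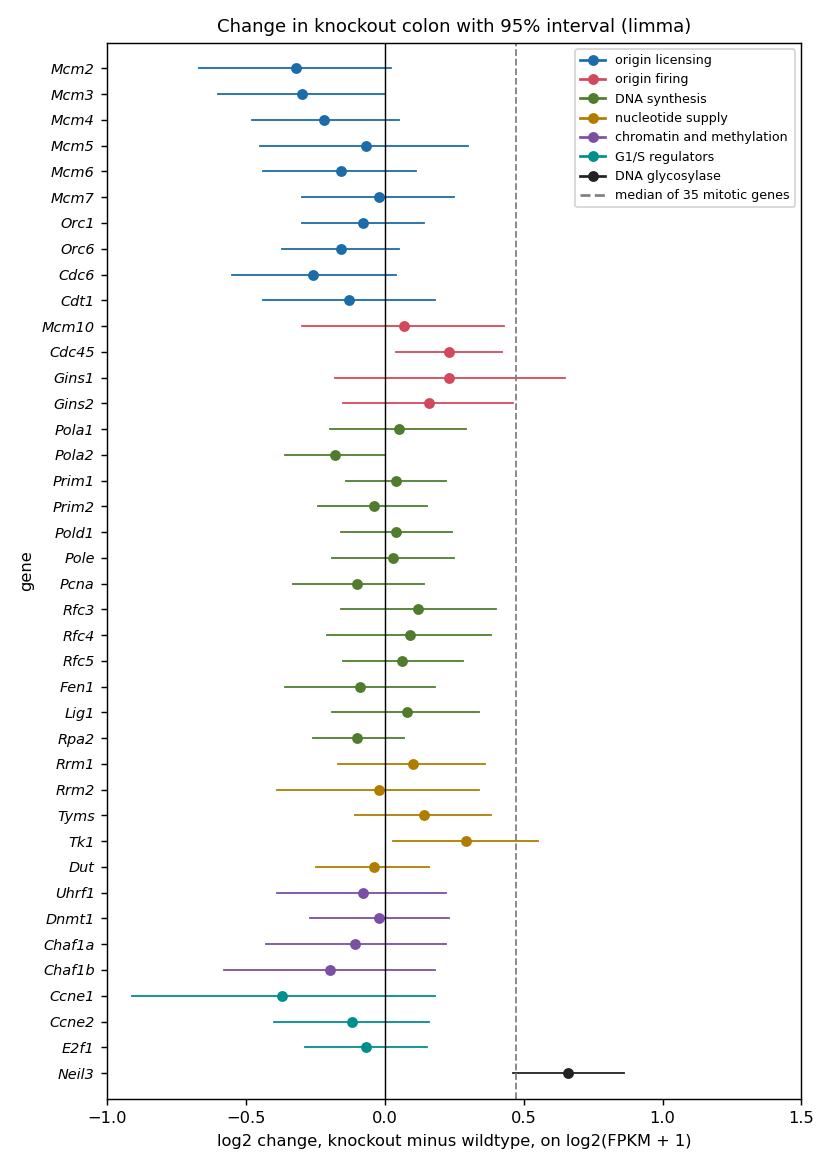
Log2 change (x axis, knockout minus wildtype on log2(FPKM + 1)) of each of the 40 genes (y axis), with its 95% interval from limma and colours for the role of the gene. Neil3 lies at 0.66, the other 39 genes lie between -0.37 and 0.29, and the dashed line marks the median of 35 mitotic genes at 0.47.

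Neil3 encodes a glycosylase that removes oxidised bases and unhooks crosslinks between DNA strands, and it is known mainly from dividing cells. Its gene lies on the minus strand of chromosome 8 (53586867 to 53639065, GRCm38) and has 10 exons in its principal transcript. It measured 3.77, 3.51 and 3.83 FPKM in the WT libraries and 5.88, 7.07 and 6.31 FPKM in the KO libraries. The 3 KO values all lay above the 3 WT values, and the lowest KO library was more than 2 FPKM above the highest WT library. The mean rose 1.73-fold, from 3.70 ± 0.174 to 6.42 ± 0.602 FPKM (SD, n = 3 each), a log2 change of 0.66 ± 0.08 (SE; limma adjusted p = 0.041). Among the 40 genes it stood 35th by level in WT and 29th in KO. The call stood close to the threshold: in 15 of 18 alternative fits Neil3 did not pass, with limma adjusted p-values of up to 0.74, and leaving out any single library ended the call (0.069 to 0.20). Its log2 change stayed between 0.55 and 0.77 in every one of these fits, and it was 0.77 with only WT library 2 and KO libraries 2 and 3. Those libraries differ less in muscle genes, but the fit rests on a single WT library. The part of muscle tissue in the Neil3 difference was not tested.

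None of the neighbours of Neil3 passed the test. The 4 other genes tested within 1 Mb were Aga, Vegfc, Spcs3 and Asb5, and their limma adjusted p-values lay between 0.50 and 0.99. Aga, a lysosomal amidase gene, measured 17.1, 18.0 and 16.7 FPKM in WT and 18.8, 16.0 and 17.9 FPKM in KO libraries. No exon of another gene overlaps an exon of Neil3 in the GENCODE annotation. Of 17 tested genes of base excision repair, the pathway of which glycosylases are the first step, 0 were called in limma, 9 had higher and 8 lower means, the median log2 change was 0.03, and 1 had an unadjusted p under 0.05. That gene was Ung, the uracil glycosylase that acts at replication forks, which measured 6.46, 8.65 and 7.93 FPKM in WT and 6.37, 6.38 and 6.07 FPKM in KO libraries. Its groups did not overlap, as for 12.5% of all genes in the lower direction, and it did not pass (log2 change -0.25 ± 0.10, SE; limma adjusted p = 0.31). Neil1, another glycosylase of the Nei family, measured 3.93, 4.58 and 4.63 FPKM in WT against 4.98, 4.92 and 5.57 FPKM in KO libraries (limma adjusted p = 0.33). In 3 of the 17, Neil1, Smug1 and Mbd4, all KO values lay above all WT values (9.3% of all genes). Ung was the only gene of the list apart in the lower direction.

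**Figure D2:**
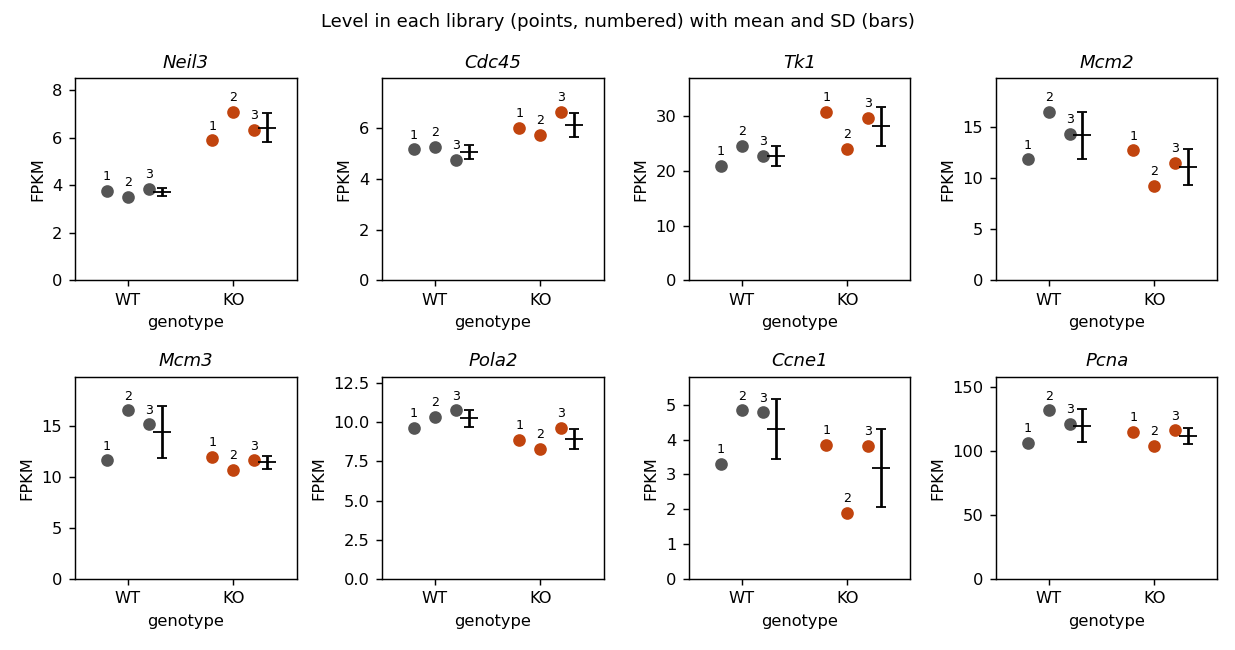
FPKM (y axis, from 0) of 8 genes in each library, grouped by genotype (x axis), with libraries as numbered points and mean and SD as bars. Neil3, Cdc45 and Pola2 have groups that do not overlap, while WT library 1 lies within or below the KO values of Mcm2, Mcm3, Ccne1 and Pcna.

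Origin licensing genes had lower means in the knockout in 10 of 10 cases, by small amounts, and 0 of 10 passed the test. Their median log2 change was -0.16 and the range ran from -0.32 to -0.02. In each of the 10 at least 1 WT library reached into the KO values. All 10 kept a lower mean when scaled to the median gene or to epithelial markers and with only WT library 2 and KO libraries 2 and 3, while 2 of the 10 had a higher mean under quantile normalization, without WT library 2 or without KO library 2, and 1 without WT library 3. On the log2(FPKM + 1) scale the helicase subunits Mcm2 and Mcm3 had the largest changes, while as a share of the wildtype FPKM Cdc6 was lowest, at 74.7%. Mcm2 measured 11.8, 16.5 and 14.3 FPKM in WT and 12.7, 9.24 and 11.5 FPKM in KO libraries, where WT library 1 lay below KO library 1. Mcm3 measured 11.6, 16.5 and 15.2 FPKM in WT and 12.0, 10.7 and 11.6 FPKM in KO libraries. The mean levels in the knockout were 78.4% and 79.3% of wildtype, and the log2 changes -0.32 ± 0.15 and -0.30 ± 0.13 (SE; limma adjusted p = 0.33 and 0.31). Mcm3 was the only one of the 10 with an unadjusted p under 0.05, as 9.91% of all genes had in the lower direction.

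The other helicase subunits lay closer to wildtype. Mcm4 measured 8.24, 11.5 and 9.64 FPKM in WT and 8.45, 8.03 and 8.16 FPKM in KO libraries. Mcm6 measured 23.4, 31.4 and 28.4 FPKM in WT and 25.5, 22.3 and 25.7 FPKM in KO libraries. Mcm7 measured 21.1, 27.7 and 26.7 FPKM in WT and 25.3, 22.5 and 26.1 FPKM in KO libraries. All 3 had WT library 1 among the lowest values, and the KO values lay within the WT range for Mcm7. The helicase contains 1 copy of each subunit, but their transcripts differed in level, with Mcm4 lowest in all 6 libraries and Mcm6 or Mcm7 highest, 2.73- to 3.20-fold above Mcm4. Summed over the 6 subunits, levels were 86.9, 119.5 and 108.1 FPKM in WT and 98.3, 83.4 and 96.4 FPKM in KO libraries.

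The loading factors and origin subunits were also below their WT means without passing. Cdc6, the ATPase that recruits the helicase, was among the least expressed genes of the set, with 1.57, 2.34 and 1.74 FPKM in WT and 1.61, 1.21 and 1.40 FPKM in KO libraries. Its log2 change was -0.26 ± 0.13 (SE; limma adjusted p = 0.36), and WT library 1 lay below KO library 1. Cdt1, which brings the helicase to the origin, averaged 10.7 ± 1.75 FPKM in WT and 9.61 ± 1.16 FPKM in KO libraries (SD, n = 3 each). The origin recognition subunits Orc1 and Orc6 averaged 1.73 ± 0.189 and 10.2 ± 1.06 FPKM in WT against 1.57 ± 0.142 and 9.01 ± 0.529 FPKM in KO libraries. The limma adjusted p-values of Cdt1, Orc1 and Orc6 were 0.64, 0.67 and 0.40.

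Origin firing genes had higher means in 4 of 4 cases, 0 of which passed, and the median change was 0.19 on the log2 scale. With only WT library 2 and KO libraries 2 and 3, or with skeletal muscle markers as covariate, 1 of the 4 had a higher mean and 3 a lower one, and scaled to epithelial markers or without WT library 1 the split was 3 to 1. Cdc45, the factor that rides with the helicase at every fork, measured 5.16, 5.27 and 4.76 FPKM in WT and 6.00, 5.74 and 6.63 FPKM in KO libraries. Its groups did not overlap, as for 9.3% of all genes in the higher direction, and the mean in the knockout was 121% of wildtype (log2 change 0.23 ± 0.08, SE; limma adjusted p = 0.27). Gins1 and Gins2 encode subunits of the GINS complex, which joins Cdc45 and the helicase. Gins1 measured 3.45, 6.15 and 5.66 FPKM in WT and 6.44, 5.74 and 5.86 FPKM in KO libraries. Gins2 measured 12.5, 15.7 and 13.8 FPKM in WT and 17.4, 13.0 and 16.9 FPKM in KO libraries. The row of Gins2 in the deposited table spans 22.01 times the length of the gene. For both genes, WT library 2 lay above KO library 2, and the log2 changes of 0.23 ± 0.18 and 0.16 ± 0.13 (SE) did not pass (limma adjusted p = 0.53 and 0.57). The exons of Cdc45 and Gins2 overlap exons of a gene on the opposite strand, Ufd1 and Gse1, and the use of strand in counting was not given in the sources used here.

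**Figure D3:**
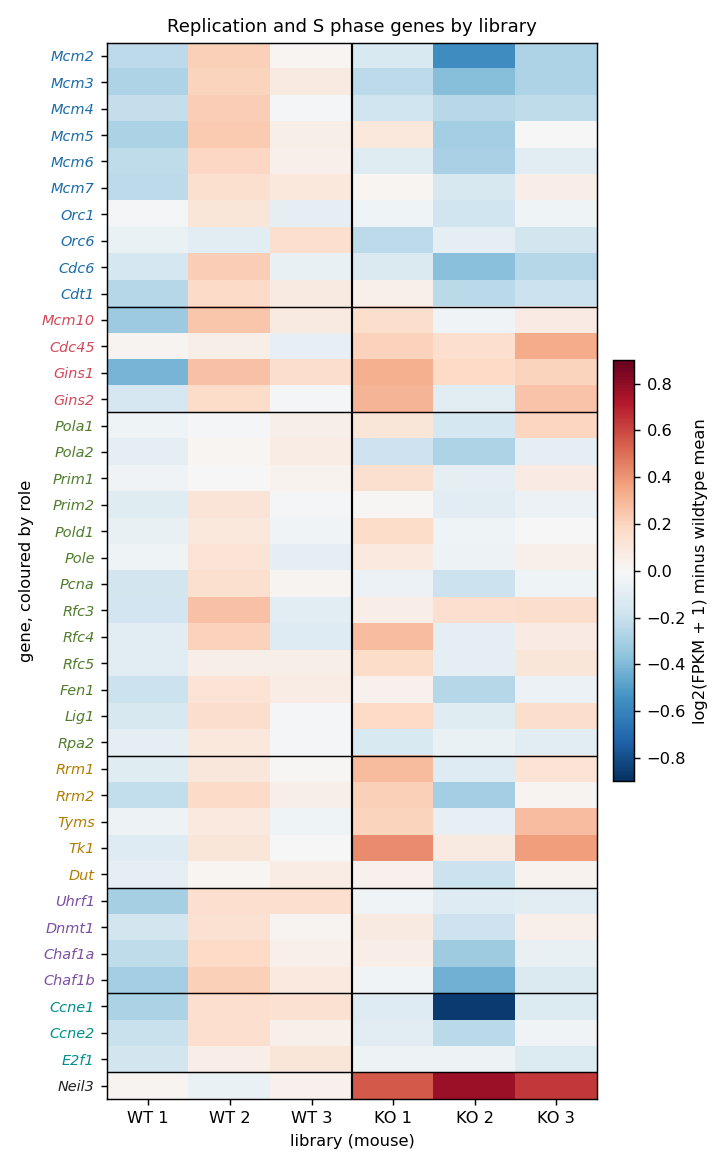
Colour gives log2(FPKM + 1) minus the wildtype mean for each of the 40 genes (y axis, coloured by role) in each library (x axis, KO for knockout). WT library 1 and KO library 2 are pale to dark blue down most rows, WT library 2 is red in most rows, and Neil3 is red in all 3 KO libraries.

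DNA synthesis genes were the flattest of the set: 8 of 13 had higher and 5 lower means, all 13 log2 changes lay between -0.18 and 0.12, and 0 passed. Scaled to epithelial markers or with skeletal muscle markers as covariate, 1 was higher and 12 lower. The split was the same with only WT library 2 and KO libraries 2 and 3. With skin markers as covariate or without KO library 1, 5 were higher and 8 lower. Pcna, the sliding clamp, was the most highly expressed of all 40 genes in both genotypes, with 106, 132 and 121 FPKM in WT and 115, 104 and 116 FPKM in KO libraries. Its KO values fell within the range of WT except for KO library 2, just below WT library 1. Rfc3, a subunit of the clamp loader, measured 14.5, 20.1 and 15.4 FPKM in WT and 17.3, 18.5 and 18.5 FPKM in KO libraries, all KO values inside the WT range. Pola2, the second subunit of DNA polymerase alpha, was the exception in this group, with groups that did not overlap: 9.66, 10.4 and 10.8 FPKM in WT and 8.89, 8.29 and 9.62 FPKM in KO libraries. The gap between the closest libraries was small, and the log2 change of -0.18 ± 0.08 (SE) did not pass (limma adjusted p = 0.31). Its partners in the complex lay closer to wildtype, with log2 changes from -0.04 to 0.05: Pola1, the catalytic subunit, averaged 5.26 ± 0.216 FPKM in WT and 5.51 ± 0.801 FPKM in KO libraries, and the primase subunits Prim1 12.5 ± 0.276 and 12.9 ± 1.12 FPKM and Prim2 6.91 ± 0.625 and 6.66 ± 0.286 FPKM (SD, n = 3 each).

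The remaining synthesis genes lay within 0.10 of 0 on the log2 scale. They were Pola1, Prim1 and Prim2, Pold1 and Pole, the catalytic subunits of polymerases delta and epsilon, the clamp loader subunits Rfc4 and Rfc5, Rpa2, which coats single strands, Fen1, which cuts flaps, and Lig1, which seals nicks. Lig1 averaged 15.6 ± 1.76 FPKM in WT and 16.5 ± 1.88 FPKM in KO libraries, and Pole, the least expressed of this group, 1.75 ± 0.209 and 1.81 ± 0.130 FPKM (SD, n = 3 each). Pcna has 2 named pseudogenes in the annotation and Tyms has 1, so the values of both genes are uncertain by any reads shared with those copies.

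Nucleotide supply genes did not pass in 5 of 5 cases, and the salvage enzyme stood out among them. Tk1, the thymidine kinase of S phase cells, measured 20.9, 24.6 and 22.8 FPKM in WT and 30.8, 24.1 and 29.7 FPKM in KO libraries. KO library 2 lay below WT library 2, so the groups overlapped, and the mean in the knockout was 124% of wildtype (log2 change 0.29 ± 0.11, SE; limma adjusted p = 0.28). Its exons overlap those of Afmid on the opposite strand, and the position of its row in the deposited table is 2.39 times as long as the gene. Tyms, which makes thymidylate, measured 9.22, 10.2 and 9.26 FPKM in WT and 11.1, 9.04 and 11.8 FPKM in KO libraries. Rrm1, the large subunit of ribonucleotide reductase, measured 15.5, 18.1 and 16.9 FPKM in WT and 20.7, 15.5 and 18.4 FPKM in KO libraries. In both genes KO libraries 1 and 3 were at or above the WT values and KO library 2 was at or below them. Rrm2, the small reductase subunit, averaged 13.1 ± 1.91 FPKM in WT and 12.9 ± 2.46 FPKM in KO libraries, and Dut, the dUTPase, 13.7 ± 0.734 and 13.3 ± 1.28 FPKM (SD, n = 3 each).

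Genes that restore chromatin and DNA methylation behind the fork had lower means in 4 of 4 cases, and the regulators of S phase entry in 3 of 3, and none (0) of these passed. Under quantile normalization 1 gene of each group had a higher mean. Without WT library 2 or without KO library 2, 1 of the 4 chromatin genes had a higher mean. Uhrf1 reads half-methylated DNA and recruits Dnmt1, the maintenance methyltransferase. Uhrf1 measured 9.31, 13.1 and 13.1 FPKM in WT and 11.4, 10.7 and 10.9 FPKM in KO libraries. Dnmt1 measured 12.5, 15.6 and 14.4 FPKM in WT and 15.0, 12.3 and 14.6 FPKM in KO libraries. Both genes had KO values that lay within or next to the WT range. Chaf1b, a subunit of the histone chaperone CAF-1, measured 7.15, 10.7 and 9.72 FPKM in WT and 8.84, 6.47 and 8.21 FPKM in KO libraries, with a log2 change of -0.20 ± 0.16 (SE; limma adjusted p = 0.56). Its partner Chaf1a averaged 6.65 ± 1.08 and 6.10 ± 0.928 FPKM (SD, n = 3 each).

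Among the regulators, Ccne1, cyclin E1, which drives cells into S phase, had the lowest log2 change of the 40 genes and also the widest spread. It measured 3.31, 4.84 and 4.78 FPKM in WT and 3.85, 1.90 and 3.83 FPKM in KO libraries. KO library 2 was far below the other libraries, while KO libraries 1 and 3 lay between WT libraries 1 and 3. The log2 change of -0.37 had an SE of 0.23 and a 95% interval from -0.91 to 0.18 (limma adjusted p = 0.45). Ccne2, cyclin E2, whose row in the deposited table spans 4.68 times the length of the gene, was the least expressed of the set and averaged 1.35 ± 0.285 FPKM in WT and 1.15 ± 0.159 FPKM in KO libraries (SD, n = 3 each). E2f1, a transcription factor of S phase entry, measured 4.61, 5.55 and 5.80 FPKM in WT and 5.09, 5.10 and 4.80 FPKM in KO libraries, all KO values inside the WT range.

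Most of the 40 genes shared an order of the mice within each genotype. WT library 1 was the lowest WT library for 34 of the 40 genes, and WT library 2 the highest for 32. KO library 2 was the lowest KO library for 35 of the 40. Over all genes tested these shares were 39.9%, 43.2% and 47.6%, and over 35 mitotic genes 74.3%, 42.9% and 91.4%, so the low place of WT library 1 and KO library 2 was found in both lists. Neil3 went against this order, with its lowest WT value in library 2 and its highest KO value in library 2. The mean of log2(FPKM + 1) over the 39 genes without Neil3 was 3.23, 3.53 and 3.43 in WT and 3.44, 3.22 and 3.40 in KO libraries. Mice of 1 genotype thus differed by up to 0.30, while the ranges of the genotypes overlapped. The 15 epithelial markers, measured in the same way, averaged 7.86, 8.32 and 7.98 in WT and 8.32, 7.91 and 8.31 in KO libraries, so that WT library 1 and KO library 2 were the lowest of their genotype there too. The part of tissue composition in this order was not tested.

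The intervals of the main fit bound the size of change that these 6 libraries allow on the log2(FPKM + 1) scale. The 95% intervals of the 39 genes reached from -0.91 to 0.65. Of the 39, 0 reached a change of 1 in either direction, which is a doubling or halving of FPKM + 1. In FPKM this bound does not hold for genes of low level such as Ccne1, since adding 1 shrinks their fold changes. Other fits can also move a gene, and with the muscle covariate the log2 change of Ccne1 was -0.77. For 36 of the 39 the interval held 0. It lay above 0 for Cdc45 and Tk1 and below 0 for Mcm3, before any adjustment for the number of genes.

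Mitotic genes, which act later in the same cycle, are given beside the replication genes as a description, without a test between the lists. Of 35 tested mitotic genes 34 had higher means in KO libraries, the median of the log2 changes was 0.47, and in 32 all KO values lay above all WT values (9.3% of all genes in that direction). None passed in limma over all genes (smallest adjusted p = 0.11), although all 34 had an unadjusted p under 0.05, as 6.3% of all genes had in that direction. The 4 with the smallest p were Ccnb2, Cdc25c, Cdca8 and Nusap1. Ccnb2, a mitotic cyclin, measured 15.0, 14.0 and 15.3 FPKM in WT and 28.9, 21.2 and 24.0 FPKM in KO libraries. Pttg1, securin, was the exception, with 43.7, 35.4 and 38.1 FPKM in WT and 29.1, 25.8 and 33.7 FPKM in KO libraries. Of the 39 replication genes, 2 had an interval that held 0.47, Gins1 and Tk1. This count is a description and cannot serve as a test between the lists. The value of 0.47 was given no interval of its own. Both lists were measured in the same 6 mice and chosen with earlier results of these data known.

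**Figure D4:**
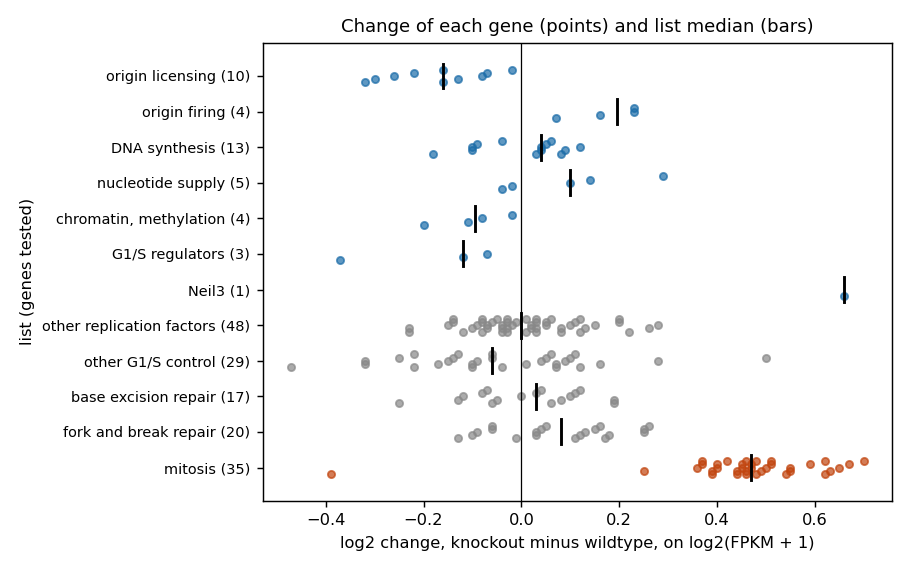
Log2 change (x axis, knockout minus wildtype on log2(FPKM + 1)) of each tested gene, 1 row of points for each list (y axis), with list medians as bars. The replication groups (blue) and the other replication and repair lists (grey) have medians from -0.16 to 0.19, while Neil3 alone lies at 0.66 and the mitotic list (orange) has its median at 0.47.

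Levels of the mitotic and replication lists were also compared within each library, where depth is shared. Such a difference can still vary with the tissues sampled, and cell cycle phase was not measured. The mean log2 level of the mitotic genes minus that of the 39 replication genes was -0.20, -0.40 and -0.27 in WT and 0.32, 0.17 and 0.14 in KO libraries. All 3 KO values lay above all 3 WT values, in contrast to the replication mean alone. The mitotic mean alone was also apart, at 3.04 to 3.16 in WT and 3.40 to 3.77 in KO libraries. Where 0 falls depends on the genes in each list and has no meaning of its own. Neil3 minus the replication mean was -0.98, -1.36 and -1.15 in WT and -0.66, -0.21 and -0.53 in KO libraries. These values did not overlap, as was already the case for Neil3 alone. Skeletal muscle sums moved with genotype as well, at 2634 to 8545 FPKM in WT and 150.4 to 2024 FPKM in KO libraries, with 8 of 9 muscle genes lower without overlap (12.5% of all genes). Epithelial marker sums ranged from 5846 to 8290 FPKM in WT and from 6289 to 8428 FPKM in KO libraries. B cell follicle genes, another source of dividing cells in the colon, summed to 19.5 to 29.4 FPKM in WT and 11.7 to 23.9 FPKM in KO libraries over 8 tested genes, all 8 with lower means, where 42.6% of all genes had a higher and the rest a lower mean. Smooth muscle genes, 9 of 9 with lower means, summed to 6470 to 10331 FPKM in WT and 5952 to 8199 FPKM in KO libraries. The part of these tissues in the difference between the lists was not tested. In every alternative fit run, the same 34 of the 35 mitotic genes, all but Pttg1, had a higher mean in the knockout. This included the fit with only WT library 2 and KO libraries 2 and 3. For the 32 whose KO values all lay above all WT values, leaving out libraries or changing the pseudocount could not change the direction.

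**Figure D5:**
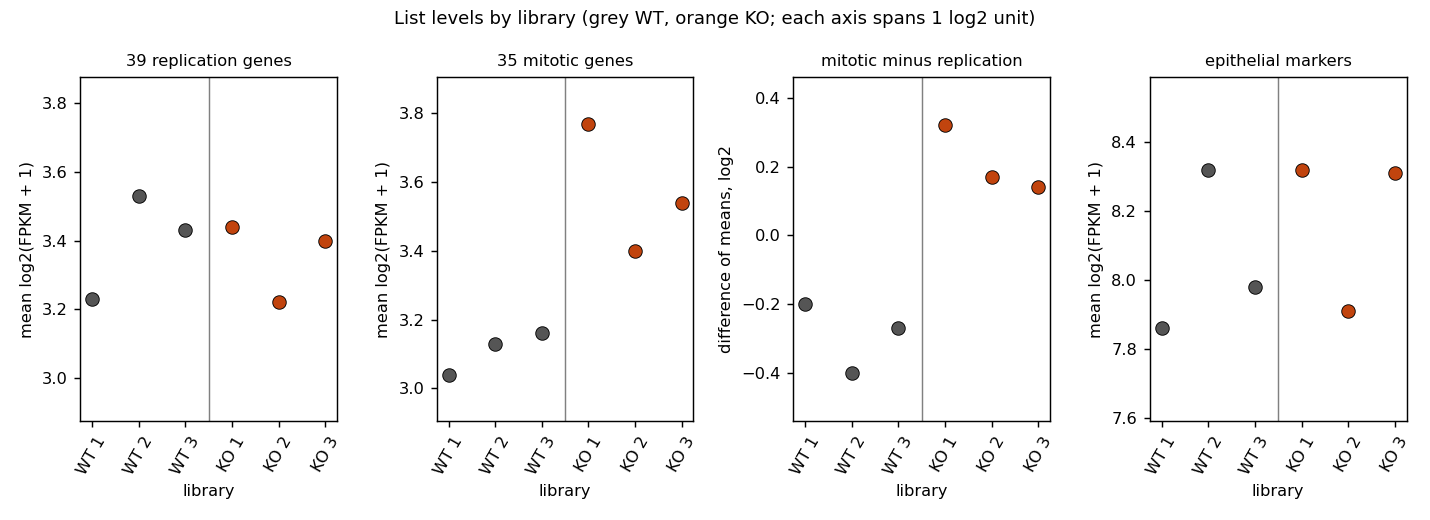
Mean log2(FPKM + 1) of 39 replication genes, 35 mitotic genes and 15 epithelial markers, and the mitotic minus the replication mean (y axes, each spanning 1 log2 unit), in each library (x axis, grey WT and orange KO). The replication means overlap between genotypes, and the difference runs from -0.40 to -0.20 in WT and from 0.14 to 0.32 in KO.

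Other genes of the pathway, taken from lists made with earlier results of these data known, lay in a range close to that of the 39. Of 48 further replication factors, 24 had higher and 24 lower means, 0 were called in limma, and the log2 changes lay between -0.23 and 0.28. Of these, 2 higher and 2 lower had an unadjusted p under 0.05, against 6.3% and 9.91% of all genes. Tipin, which stabilises stalled forks, had the smallest p, with 14.7, 14.9 and 14.8 FPKM in WT and 13.5, 11.6 and 12.4 FPKM in KO libraries (limma adjusted p = 0.24). Chtf18, of an alternative clamp loader, measured 2.13, 2.51 and 2.31 FPKM in WT and 3.43, 2.81 and 2.88 FPKM in KO libraries (adjusted p = 0.27). Both had groups that did not overlap and neither passed. Groups did not overlap in 4 higher and 3 lower of the 48, against 9.3% and 12.5% of all genes. Of 20 genes of fork and break repair 14 had higher and 6 lower means (42.6% of all genes were higher), and in 5 all KO values lay above all WT values (9.3% of all genes). The median log2 change of these 20 was 0.08, 0 were called in limma and 0 had an unadjusted p under 0.05.

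A further list held 29 tested genes that control the passage from G1 to S phase. They are cyclins and their kinases and inhibitors, E2F and retinoblastoma family genes, and others such as Myc and Skp2. Of the 29, 13 had higher and 16 lower means, the median log2 change was -0.06, and 0 were called in limma. An unadjusted p under 0.05 was reached by 2 higher and 4 lower, against 6.3% and 9.91% of all genes. Groups did not overlap in 2 higher and 6 lower, against 9.3% and 12.5% of all genes. Ccna2, cyclin A2, which acts in S phase and up to mitosis, measured 17.5, 20.4 and 18.8 FPKM in WT and 32.0, 21.5 and 28.7 FPKM in KO libraries, without overlap (log2 change 0.50 ± 0.14, SE; limma adjusted p = 0.23). The D cyclins of early G1 lay the other way: Ccnd3 measured 36.3, 33.0 and 37.4 FPKM in WT and 29.3, 27.6 and 27.9 FPKM in KO libraries, and Ccnd1 26.8, 26.0 and 28.7 FPKM against 24.8, 20.8 and 22.6 FPKM. Neither gene passed (limma adjusted p = 0.18 and 0.26). Cdkn1c, an inhibitor of cyclin-dependent kinases, measured 6.35, 3.75 and 5.37 FPKM in WT and 3.46, 3.59 and 3.09 FPKM in KO libraries (adjusted p = 0.27). Of 12 tested crypt base genes 5 had higher and 7 lower means, the median log2 change was -0.05, and 0 were called in limma.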

How the data were processed

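Distal colon mRNA of 3 mice per genotype was sequenced in pairs of 50 bp reads, to about 50M reads on average. By the series' design text, the authors used Tophat2 with Bowtie2 for alignment, Cufflinks for assembly and Cuffdiff 2 for tests. The submitters' processing notes name mm10. Versions, annotation, strandedness and library scaling: not given in the sources used here. Per the file headers, the deposited table holds FPKM per library, group FPKM with a log2 ratio, and the authors' p-values and q-values. FPKM are not counts, so depth per gene is unknown and no counting interval was computed.

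Groups came from sample titles, and the labels name 3 mice per genotype. Rows without a gene name (6.13% of rows, 17.7% of summed FPKM) were left out. The test was limma 3.58.1 (R 4.3.3) on log2(FPKM + 1), with trend, robust moderation and no covariate, for genes averaging 0.5 FPKM or more, with Benjamini-Hochberg adjustment over all of them; it was tried on simulated data. This scale understates fold changes of low genes. Tables and plots were made in Python 3.11.15 (numpy 2.4.6, pandas 2.3.3, matplotlib 3.10.9). Positions are from GENCODE M21 (GRCm38). Exons of 11 of the 40 genes overlap a protein-coding gene on the opposite strand. Alternatives covered the pseudocount, filter, scaling, moderation, small RNA genes, tissue covariates, a replicate block and left-out libraries. Values per library are given for Neil3, for the 8 highest and 8 lowest log2 changes, the 5 highest levels and at least 2 genes of each role, and for genes among the 4 smallest p-values of other lists; Epcam, Pttg1 and Aga were named after their values were seen. The genes and lists were chosen with earlier results of these data known.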

Additional observations from a re-analysis of the deposited data

How the results depend on the processing

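With 3 mice per genotype, changes of the size seen in most of the 39 genes cannot be told from the spread between mice, and the depth of single genes is unknown. The number of genes called higher was 27 and fell to 16 with a pseudocount of 0.1 FPKM, 11 without small RNA genes, 17 with skin markers as covariate, 14 with skeletal muscle markers as covariate and 14 with the replicate block. Called lower were 15 genes, 9 with the skin and 7 with the muscle covariate. Leaving out single libraries gave 13 to 34 higher (15 without WT library 1, 13 without WT library 3 and 13 without KO library 3) and 8 to 36 lower (36 without WT library 2, 9 without WT library 3, 8 without KO library 2 and 8 without KO library 3). The number of the 40 genes called, 1 (Neil3), was 0 with a pseudocount of 0.1 FPKM, without a filter, scaled to the median gene, scaled to epithelial markers, without trend or robust moderation, without small RNA genes, with either covariate, with the replicate block (adjusted p = 0.35) and without any single library (0 in each). It stayed 1 with a pseudocount of 0.5 FPKM, a minimum of 2 FPKM and quantile normalization. The count of genes with a higher mean, 16 of 40, was 7 scaled to epithelial markers, 5 with the muscle covariate and 5 with only WT library 2 and KO libraries 2 and 3. The median log2 change of the 40 genes, -0.04, was -0.16 scaled to epithelial markers, -0.16 with the muscle covariate, -0.19 with those 3 libraries, 0.01 under quantile normalization, and between -0.12 and 0.04 without single libraries, above 0 without WT library 2 or KO library 2. Scaling to epithelial markers moved the median of all genes from -0.03 to -0.14, and both covariates differ between the genotypes.

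Of the 21 genes with values per library, Mcm7, Dnmt1, E2f1, Gins1, Gins2, Rfc3 and Rrm1 changed sign in at least 1 alternative, and none of these had passed the test. Under quantile normalization Mcm7 was at 0.01, Dnmt1 at 0.02 and E2f1 at 0.00. With the muscle covariate Gins1 was at -0.04, Gins2 at -0.08 and Rrm1 at -0.13. With only WT library 2 and KO libraries 2 and 3, Gins1 was at -0.07, Gins2 at -0.08, Rfc3 at -0.11 and Rrm1 at -0.10. Rrm1 was at -0.02 scaled to epithelial markers and at 0.00 with the skin covariate. Without single libraries Mcm7 ranged from -0.14 to 0.05 and Dnmt1 from -0.10 to 0.06. The cause of these changes was not tested. The labels do not say that replicate numbers pair the mice. Deviations from the group mean of same-numbered libraries correlated at -0.37, -0.33 and 0.20 over genes, which cannot exclude shared litters or handling. The block moved the calls from 27 and 15 to 14 and 10.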
